A study of Caenorhabditis elegans with 40 samples.

Results

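The comparison covers 8 of the 40 whole-animal RNA libraries of the series: the 4 biological repeats of hermaphrodites in the fourth larval stage (L4) and the 4 repeats of young adult (YA) hermaphrodites, chosen by their labels alone. All 8 were the wild-type strain N2 of Caenorhabditis elegans, grown at 25 °C, and each was RNA of many pooled whole animals with no transgene or treatment. The study asked how sex and developmental stage shape gene expression, and this stage step is the last before reproduction in hermaphrodites. Male libraries of the same stages, which come from another strain, dpy-28(y1);him-8(e1489), are used once, to ask whether the stage change differed between the sexes.

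At the end of L4 the hermaphrodite molts into the adult, and its germ line first makes a store of sperm and then switches to oocytes for good. The adult intestine makes yolk proteins that oocytes take up, while the epidermis stops the molting cycle and keeps an adult collagen cuticle. In bulk RNA of whole animals, more cells of a type and more RNA per cell cannot be told apart, so a germ line that grows between the stages raises the share of all of its transcripts.

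RNA was tagged with unique molecular identifiers (UMIs) near the 3′ end of each transcript, and the values are UMI counts per gene over the 11933 genes of the deposited table. L4 libraries held 3184047 to 6492482 UMIs and YA libraries 2479432 to 6096830, with 8792 to 10280 genes counted at least once. The levels below are CPM (UMIs of a gene as a share of its library, on the usual scale) scaled by TMM, a normalization that assumes most genes keep their share. Level refers to a gene's share of its library, so levels of different genes are set side by side only as shares of UMIs.

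The YA libraries fell apart in pairs, and the results are given with this in view. Pearson correlations of log2 CPM across genes, which are not independent replicates, were 0.955 to 0.99 among the L4 libraries. YA repeat 1 correlated with YA repeat 4 at 0.971 and repeat 2 with repeat 3 at 0.984, but between these pairs the values were 0.824 to 0.854. On the first principal component (68% of the variance) the L4 libraries lay at −67.5 to −51.4, YA repeats 1 and 4 at 11.15 and 18.4, and YA repeats 2 and 3 at 101.4 and 106.9. On the second component (22%) YA repeats 1 and 4 stood alone, at 69.2 and 62.7 against −29.9 to −13.5 for all other libraries. No 2 libraries of a stage agreed within counting noise, so none was treated as a duplicate.

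**Figure D1:**
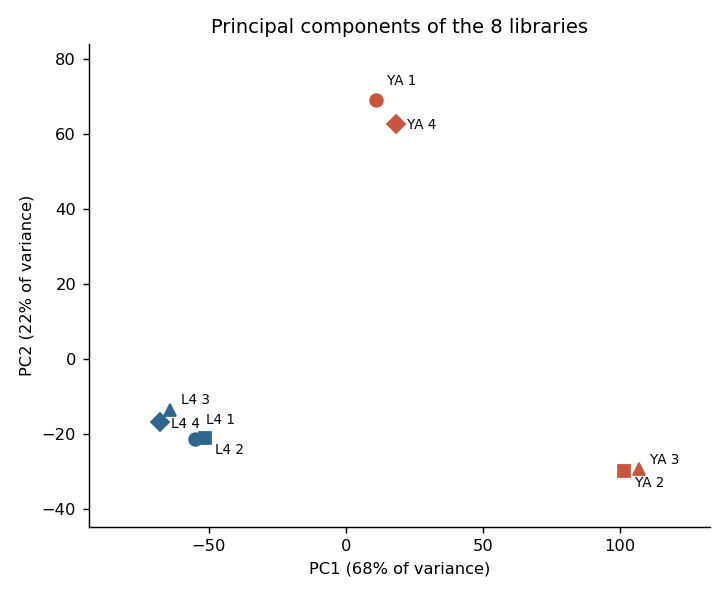
First and second principal components of log2 CPM in the 8 hermaphrodite libraries, with the share of variance on each axis. Blue symbols are L4 libraries, red symbols are YA libraries, and the labels give the repeat. The L4 libraries group together, whereas YA repeats 1 and 4 lie at 69.2 and 62.7 on the second component and repeats 2 and 3 at −29.9 and −29.4.

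Between L4 and YA, yolk, eggshell, oocyte and germline genes took a larger share of hermaphrodite RNA. Most tested cuticle collagen, molting and hedgehog-related genes each took a smaller one, although the summed share of the collagens overlapped between the stages. Of 5577 genes with enough counts to test, 1272 were higher in YA (22.8% of those tested) and 837 were lower (15%). Calls came from edgeR's quasi-likelihood test and needed an adjusted p (Benjamini-Hochberg) no higher than 0.05, a mean normalized count of 5 or more and a change of 2-fold or more. Rises were the more numerous in this fit, but not without the filter on low counts (1108 higher, 1254 lower), with all 40 libraries in the model (1702 and 1816), with limma voom (1507 and 2027) or without YA repeats 1 and 4 (1594 and 2293). Large changes were more often falls: 46 called genes rose at least 16-fold and 188 fell at least 16-fold. The median log2 fold change (YA minus L4, as everywhere below) over all genes tested was 0.09, and it was −0.02 with DESeq2's scaling, a shift of the zero point against which list medians should be read. Standard errors (±) were derived from the test's F statistic.

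Both counts depended on which YA libraries were used. Of the 837 genes called lower, 797 were also called lower without YA repeats 1 and 4, 782 without repeats 2 and 3, and 744 in both of these fits. Of the 1272 called higher, 1181 were also called without repeats 1 and 4, but 706 without repeats 2 and 3, and 618 in both. The libraries of the stages did not overlap for 1151 of the called rises and 795 of the called falls. The number of falls moved more than that of rises: over all genes the fit without repeats 1 and 4 called 1594 higher and 2293 lower, and the fit without repeats 2 and 3 called 1348 and 1258.

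**Figure D2:**
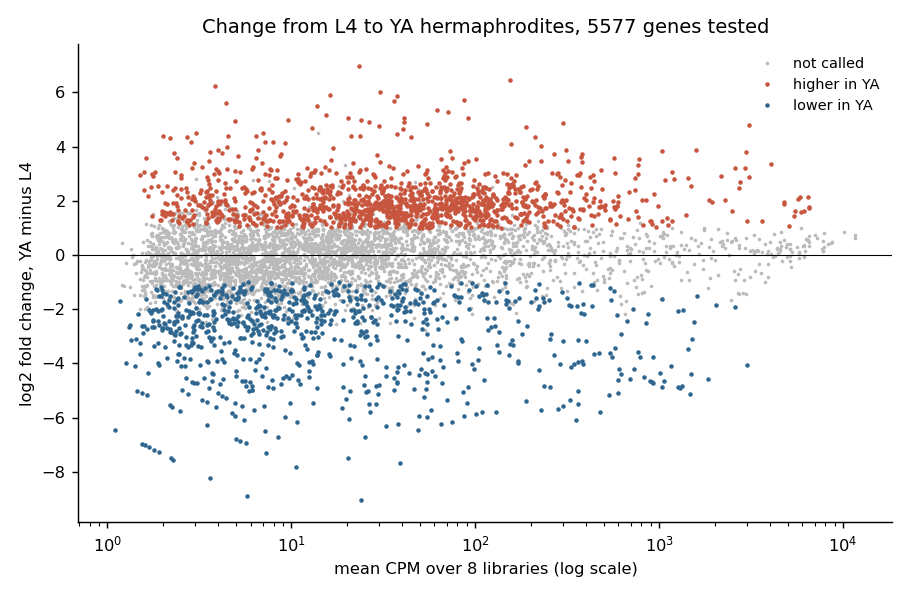
Log2 fold change from L4 to YA against the mean CPM over the 8 libraries (log axis) for the 5577 genes tested. Red points are the 1272 genes called higher in YA, blue points the 837 called lower and grey points the rest. The falls reach further from 0 than the rises, to −9.05 for T19C3.2 against 6.99 for C45H4.14.

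The vitellogenins, the yolk precursor proteins that the intestine secretes for oocytes, all rose. All 6 were tested and called higher, without overlap between the stages, and all 6 were called in both fits that leave out a pair of YA libraries. Their median log2 fold change was 2.89. Summed over the family, the level went from 1064 to 1879 CPM in the L4 libraries to 8557, 13648, 16811 and 9311 CPM in YA repeats 1 to 4.

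vit-6 (chromosome IV, 8261157 to 8266459, WBcel235) was the most abundant, at 606, 410, 562 and 738 CPM in L4 repeats 1 to 4 and 2945, 6395, 8301 and 3583 CPM in YA repeats 1 to 4. Every YA library lay above every L4 library, with repeats 2 and 3 highest. Its log2 fold change was 3.20 ± 0.40 (edgeR adjusted p = 0.000255), and vit-2 on chromosome X changed alike, by 2.91 ± 0.39. vit-1 was the most even across the YA libraries, at 791, 812, 798 and 689 CPM against 92.7 to 139 CPM in L4. Its mean went from 115 ± 19.7 to 773 ± 56.4 CPM (SD, n = 4), a log2 change of 2.74 ± 0.24 (edgeR adjusted p = 3.13e-05). vit-3, vit-4 and vit-5 are near-identical neighbours in sequence, so their counts can be shared among them. They changed by 2.97, 2.87 and 2.42 on the log2 scale, and of these vit-4 and vit-5 were higher in YA repeats 1 and 4 than in repeats 2 and 3, the reverse of vit-6 and vit-2.

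Of the genes for yolk uptake and vitellogenin control, 6 of 12 were tested, 2 rose and 1 fell. rme-2, the oocyte receptor that takes up yolk, rose from 53 to 64 CPM in L4 to 174, 649, 720 and 318 CPM in YA repeats 1 to 4. The rise was uneven but no library overlapped, and the log2 change was 3.02 ± 0.44 (edgeR adjusted p = 0.000662). rict-1, a component of the TORC2 kinase complex, also rose, by 2.5 ± 0.5. ceh-60, a homeobox factor that acts in the intestine on vitellogenin expression, went the other way, from 12.4 to 16.8 CPM in L4 to 2.79, 0.883, 0.46 and 3.77 CPM in YA, a log2 change of −2.86 ± 0.57 (edgeR adjusted p = 0.00335).

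Eggshell and egg activation genes rose together. Of 14 tested, 11 were higher in YA and none lower, with a median log2 fold change of 2.24, and 10 of the 11 were called in both fits without a YA pair. The summed level of the list was 900 to 1053 CPM in L4 and 5712, 11083, 11459 and 7646 CPM in YA repeats 1 to 4. cpg-2, a chondroitin proteoglycan of the eggshell (chromosome III, 7102092 to 7103990), measured 244, 234, 173 and 164 CPM in L4 and 1478, 3892, 4169 and 2298 CPM in YA. All YA libraries lay far above L4, and the log2 change of 3.86 ± 0.39 (edgeR adjusted p = 8.06e-05) was the largest of the list. perm-4 and perm-2, which are needed for the permeability barrier of the eggshell and lie next to each other on chromosome IV, rose by 3.83 ± 0.41 and 3.53 ± 0.37. cbd-1, the chitin-binding protein that anchors the outer vitelline layer, rose by 1.98 ± 0.27. The tested members that were not called were egg-3, perm-3 and perm-5, at 1.19, −0.40 and 0.60. perm-3 and perm-5 were lower in YA repeats 2 and 3 than in L4 and higher in repeats 1 and 4.

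Oocyte RNA-binding proteins, which store and silence maternal messages until they are used, behaved similarly: 19 of 28 rose, none fell, and the median log2 fold change was 2.00. Among the 19, 15 were called in both fits without a YA pair. cey-2, a Y-box protein of stored mRNA particles, measured 372, 426, 295 and 294 CPM in L4 and 1915, 2843, 3008 and 2257 CPM in YA repeats 1 to 4. The stages were well apart, with a log2 change of 2.85 ± 0.27 (edgeR adjusted p = 5.43e-05). mex-1, a zinc finger protein of oocytes and early embryos, rose by 3.72 ± 0.43 and puf-3, a Pumilio family protein, by 3.46 ± 0.36. oma-1 and oma-2, which oocytes need for maturation, rose by 1.60 ± 0.28 and 2.18 ± 0.30. The smallest of the calls were the least secure: cey-4, at 1.14 ± 0.37, was at 0.11 without YA repeats 2 and 3, and leaving out any of the L4 libraries or YA repeat 2 or 3 also ended its call, at log2 changes down to 0.83.

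P granule components, parts of the RNA-rich granules of germ cells, rose in 8 of 12 tested and fell in none (median log2 fold change 2.34). They differed more between YA libraries than the eggshell genes did: the summed level was 460 to 532 CPM in L4 and 860, 2703, 2911 and 1278 CPM in YA repeats 1 to 4, and 5 of the 8 calls were made in both fits without a YA pair. pgl-1, a core P granule protein, went from 93.1 to 125 CPM in L4 to 308, 980, 908 and 370 CPM in YA (log2 change 2.51 ± 0.42, edgeR adjusted p = 0.00123). glh-1, a Vasa-type helicase, overlapped between the stages, with 121 CPM in YA repeat 1 inside the L4 range of 99.5 to 125 CPM and 572 CPM in YA repeat 2. Its call at 1.80 ± 0.49 (edgeR adjusted p = 0.0155) was lost without YA repeats 2 and 3, where the log2 change was 0.39. It was also lost without any 1 of the L4 libraries and without YA repeat 2 or 3 alone (adjusted p 0.0512 to 0.0579).

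DNA replication and cell division genes were higher in 11 of 21 tested and lower in none, with a median of 1.70. cyb-3, a B-type cyclin that is stored in oocytes, measured 51.8 to 62.6 CPM in L4 and 309, 398, 363 and 410 CPM in YA repeats 1 to 4. Its log2 change was 2.68 ± 0.23 (edgeR adjusted p = 3.1e-05). mcm-4 and mcm-3, subunits of the replicative helicase, rose by 2.83 ± 0.34 and 1.95 ± 0.30. Of 19 meiotic chromosome genes, 8 had enough counts to test and 2 rose, syp-4 of the synaptonemal complex by 1.69 ± 0.27 and the crossover factor msh-5 by 3.18 ± 0.57. These 2 are set against 22.8% higher over all genes tested. Thus 11 of the 19 were not tested, and the list median of 0.33 rests on few counts. It was −0.48 without YA repeats 1 and 4 and 1.01 without repeats 2 and 3.

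**Figure D3:**
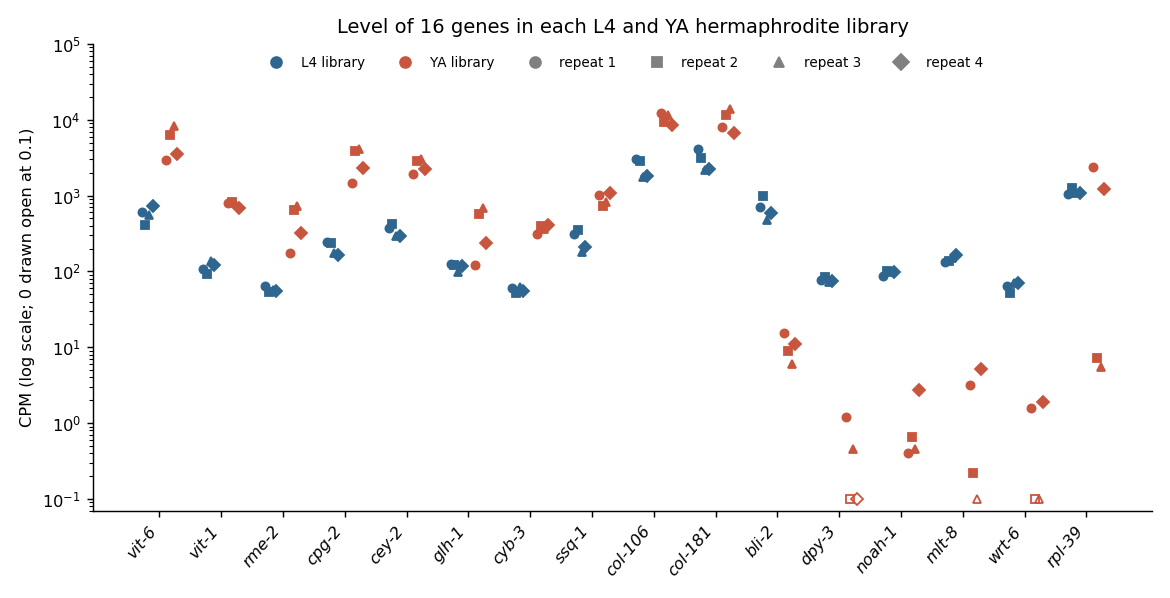
CPM (log axis) of 16 genes in each library, blue for L4 and red for YA, with a symbol for each repeat and open symbols for 0. vit-6, cpg-2 and cey-2 lie higher in all YA libraries, bli-2, dpy-3, noah-1, mlt-8 and wrt-6 lower in all of them, and rpl-39 is at 7.29 and 5.52 CPM in YA repeats 2 and 3 but at 2382 and 1208 CPM in repeats 1 and 4.

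Sperm genes did not move as a group. Of 29 major sperm protein (MSP) genes tested, msp-63 alone was called, at 1.21 ± 0.33 (edgeR adjusted p = 0.0158), and not without YA repeats 1 and 4 or without L4 repeat 1, 3 or 4 (log2 changes 0.95 and 1.06 to 1.2). MSPs are the cytoskeletal proteins of nematode sperm, encoded by short, near-identical genes among which counts cannot be split with certainty. Their summed level was 1336 to 2010 CPM in L4, 3556 and 3318 CPM in YA repeats 1 and 4, and 466 and 721 CPM in repeats 2 and 3, so the YA libraries lay on both sides of the L4 range. Outside the MSP family 9 of 38 sperm genes rose and none fell, set against 22.8% higher over all genes tested. These included ssq-1 and ssq-2, sperm-specific glycine-rich proteins, with ssq-1 at 309, 350, 183 and 209 CPM in L4 and 1017, 737, 829 and 1080 CPM in YA. Here all YA libraries were higher, including repeats 2 and 3, and the log2 changes were 1.80 ± 0.29 for ssq-1 and 1.98 ± 0.27 for ssq-2.

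Cuticle collagens, the extracellular matrix proteins secreted by the epidermis, held the largest body of falls. Of 135 tested, 97 were lower in YA and 21 higher, with a median log2 fold change of −2.92, and 91 of the falls and 14 of the rises were called in both fits without a YA pair. The summed level did not follow the number of genes: it was 96975 to 163194 CPM in L4 and 128771, 185406, 230789 and 103559 CPM in YA repeats 1 to 4, overlapping ranges. Collagen genes resemble each other, and some of their counts may be shared.

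Among those that fell, bli-2 (chromosome II, 5651394 to 5652434), which forms the struts of the adult cuticle, measured 714, 979, 483 and 598 CPM in L4 and 15.2, 9.05, 5.98 and 11 CPM in YA repeats 1 to 4. No YA library came near an L4 library, and the log2 change was −6.08 ± 0.42 (edgeR adjusted p = 9.6e-06). Its partner in the struts, bli-1, fell by 5.94 on the log2 scale. dpy-3, a collagen of the annular furrows, was at 71.7 to 84.0 CPM in L4 and at 1.2, 0, 0.46 and 0 CPM in YA, a log2 change of −7.69 ± 0.76. The cuticle collagens sqt-1 and rol-6, known for mutants that roll or are short, had log2 changes of −5.81 and −4.83, and the furrow collagen dpy-7 of −4.93. dpy-7, sqt-1, rol-6 and bli-1 were picked after their values were seen, as well known members of the list.

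The 3 most abundant of the 21 collagens that rose were col-106, col-181 and col-140. col-106 went from 3052, 2850, 1770 and 1791 CPM to 12434, 9345, 11561 and 8450 CPM, a log2 change of 2.14 ± 0.29 (edgeR adjusted p = 0.000428). With all YA libraries above all L4 libraries, it became the fourth most abundant gene of the YA group. col-181 rose by 1.78 ± 0.33, and col-140 by 1.72 ± 0.34, the latter to 0.99 without YA repeats 2 and 3, under the 2-fold threshold. Larger rises came from lower starting levels: col-101 went from 147 to 267 CPM to 6673, 6797, 7209 and 3210 CPM (log2 change 4.81 ± 0.38), and col-95 rose by 4.89 ± 0.31. col-19, a collagen used as a marker of the adult epidermis, was at 1589 to 2870 CPM in L4 and 3230, 6255, 8411 and 2708 CPM in YA. The stages overlapped for it, and the call at 1.27 ± 0.40 (edgeR adjusted p = 0.03) was not made without YA repeats 2 and 3. col-101, col-95 and col-19 were likewise picked after their values were seen.

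Molting genes fell almost as a body. Of 20 tested, 13 were lower and 2 higher, with a median of −3.77, and all 15 calls were made in both fits without a YA pair. The summed level was 2014 to 2333 CPM in L4 and 365 to 492 CPM in YA. noah-1, a zona pellucida protein of the sheath laid down before each molt, was at a mean of 96.4 ± 6.81 CPM (SD, n = 4) in L4 and 0.399, 0.662, 0.46 and 2.69 CPM in YA (log2 change −6.47 ± 0.58, edgeR adjusted p = 4e-05). mlt-8, needed to complete molts, was at 133 to 166 CPM in L4 and at 3.19, 0.221, 0 and 5.12 CPM in YA repeats 1 to 4, with a log2 change of −6.16 ± 0.94. cut-2, a cuticlin, kept more of its level: it went from 549 to 717 CPM to 30.8 to 43.5 CPM, with a narrow spread in YA (log2 change −4.15 ± 0.26). The 2 rises were egg-6, which is also counted among the eggshell genes, and nhr-23, a nuclear receptor that drives the larval molting cycle, at 2.48 to 5.43 CPM in L4 and 9.18 to 12.9 CPM in YA (1.45 ± 0.34). lin-42, the period-like timing gene whose level cycles with the molts, fell by 2.82 on the log2 scale and was the 1 call among 5 tested heterochronic genes.

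Hedgehog-related genes, which encode secreted proteins of the worm's expanded hedgehog-like families and their patched-related receptors, fell in 23 of 34 tested and rose in 3, with a median of −2.48. grl-7 measured 286, 255, 236 and 241 CPM in L4 and 4.39, 5.08, 2.99 and 5.92 CPM in YA. All YA libraries agreed closely, and the log2 change was −5.78 ± 0.32 (edgeR adjusted p = 8.29e-06). grl-16, the most abundant member that fell, went from 487 to 614 CPM to 24.3 to 38.2 CPM (−4 ± 0.27), and the warthog gene wrt-6 from 52.4 to 70.8 CPM to 1.6, 0, 0 and 1.89 CPM (−6.31 ± 0.90). grd-3 stood against the rest, at 70.2 to 118 CPM in L4 and 443, 750, 799 and 308 CPM in YA, a rise of 2.66 ± 0.37. Among the astacin metalloproteases, some of which cut collagens or open the old cuticle, 5 of 11 fell and none rose, with nas-27 at 20.7 to 26.1 CPM in L4 and 0.539 to 1.99 CPM in YA (−4.50 ± 0.45).

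**Figure D4:**
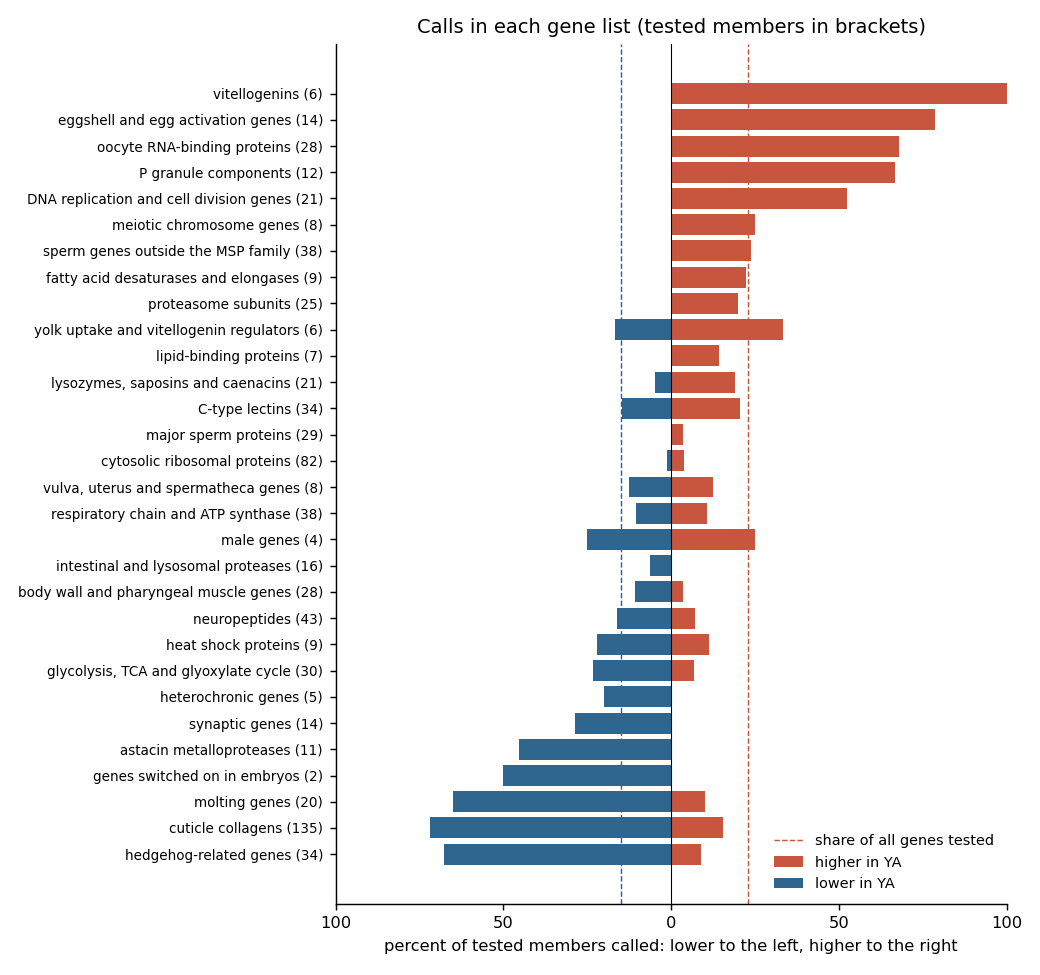
Share of the tested members of each of 30 gene lists called higher in YA (red, to the right) or lower (blue, to the left), in percent, with the number tested in brackets. Dashed lines mark the shares over all genes tested, 22.8% and 15%. Vitellogenins, eggshell, oocyte and P granule lists lie at the top, and molting, collagen and hedgehog-related lists at the bottom. The 3 lists at the bottom had 13 of 20, 97 of 135 and 23 of 34 members called lower.

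Most of the genes with the largest changes have no name beyond their sequence identifier. Among the 10 largest rises of genes with a mean normalized count of at least 100 and no overlap, none carries a gene name. C45H4.14 (chromosome V, 2158659 to 2159431) was at 0.339, 0, 0.365 and 0.507 CPM in L4 and 28.7, 56.5, 61.4 and 38.2 CPM in YA repeats 1 to 4. It was close to absent in L4 and clearly present in all YA libraries, with a log2 change of 6.99 ± 0.57 (edgeR adjusted p = 2.17e-05). F09E10.1 on chromosome X went from 2.55 to 5.27 CPM to 465, 139, 271 and 344 CPM (6.46 ± 0.49), and F22E5.17 on chromosome II from 0.31 to 1.19 CPM to 48.3 to 74.2 CPM (6.01 ± 0.43). The other rises in this set were F15A4.10, C17E7.12, M151.7, F12E12.1, C50E3.11, C05D9.12 and F23A7.8, with log2 changes from 5.86 down to 5.05.

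The 10 largest falls were led by T19C3.2 (chromosome III, 615422 to 617567), at 48.9, 49.9, 39.1 and 53.3 CPM in L4. Its YA libraries held 1 UMI in all against 1191 in L4, a ratio of 713 with a 95% counting interval of 128 to 28200. Y46G5A.29 had 3 UMIs in YA and 1036 in L4. The interval covers counting error only, and the fitted fold changes of such genes are no bounds. The named members of the set, beside dpy-3, noah-1, wrt-6, mlt-8 and bli-2, were lpr-5, a lipocalin-related protein of the precuticle, at 43.7 to 57.1 CPM in L4 and 0 to 0.883 CPM in YA, and abu-13, of a family rich in glutamine and asparagine, at 71.3 to 77.5 CPM and 0.442 to 1.62 CPM. H42K12.3 on chromosome X completed it, with a log2 change of −6.22 ± 0.46.

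A few genes were switched between the stages in every library. By a limit of under 1 CPM in each library of a stage and at least 10 CPM in each library of the other, 5 genes were switched on in YA (C45H4.14, R04D3.2, T24E12.1, Y75D11A.3 and the caveolin gene cav-1) and 12 were switched off, among them T19C3.2, Y46G5A.29, lpr-5 and the nuclear receptor gene nhr-234. cav-1 was at 0.25 to 0.85 CPM in L4 and 21.95, 38.2, 26.91 and 20.47 CPM in YA repeats 1 to 4.

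With all 8 libraries, energy metabolism was called in single enzymes, and its list medians lay near that of all genes. Among glycolysis, TCA and glyoxylate cycle genes 2 of 30 rose and 7 fell, and of respiratory chain and ATP synthase genes 4 of 38 rose and 4 fell. Over all genes tested 22.8% were higher and 15% lower. The list medians were −0.03 and −0.04. They were 0.15 and −0.34 without YA repeats 1 and 4, where that of all genes was −0.37. Without repeats 2 and 3 they were −0.74 and −0.17, against −0.05 for all genes. The nuclear-encoded members isp-1 (the Rieske iron-sulfur protein), ucr-1 (a core subunit of complex III) and gas-1 (a subunit of complex I) fell by 1.67, 1.89 and 1.74 on the log2 scale. isp-1 was at 326, 261, 462 and 491 CPM in L4 and 135, 150, 97.8 and 100 CPM in YA, without overlap (edgeR adjusted p = 0.0017). Of the 4 rises, nduo-2, nduo-3 and atp-6, which are encoded in mitochondrial DNA, were high in YA repeats 1 and 4 alone (53.08, 3.75, 2.99 and 36.89 CPM for nduo-3 in YA repeats 1 to 4, against 1.7 to 4.03 CPM in L4). They were not called without these repeats. The glycolytic enzyme gpd-1 rose by 2.61 ± 0.36, but it is near-identical to gpd-4, which also rose. The citrate synthase gene cts-1 was lower at −1.31 ± 0.40 (edgeR adjusted p = 0.027), a call lost without L4 repeat 3 (adjusted p = 0.0516) or 4 (0.0568).

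Of 28 body wall and pharyngeal muscle genes, unc-54 rose and myo-3, unc-89 and unc-97 fell, against 22.8% higher and 15% lower over all genes tested. The list median was 0.20, but 0.60 without YA repeats 1 and 4 and −0.62 without repeats 2 and 3. The call of unc-97 was lost without any 1 of the L4 libraries (adjusted p 0.053 to 0.0828) or without YA repeat 2 (0.0554). The myosin heavy chain genes of body wall muscle went in opposite directions: unc-54 went from 159 to 301 CPM to 385 to 654 CPM (1.36 ± 0.30, edgeR adjusted p = 0.00518) and myo-3 from a mean of 120 ± 6.98 to one of 41.1 ± 7.36 CPM (SD, n = 4), a log2 change of −1.54 ± 0.24 (edgeR adjusted p = 0.00092). With all 40 libraries scaled together, unc-54 was at 198 to 405 CPM in L4 hermaphrodites and 13624 to 16630 CPM in L4 males. For myo-3 these ranges were 143 to 174 and 295 to 327 CPM. Why unc-54 counts were so low in hermaphrodites was not tested, which limits the reading of its rise. Of 43 neuropeptide genes tested, 3 rose and 7 fell, set against 22.8% higher and 15% lower over all genes tested. The list median of −0.50 was −2.09 without YA repeats 1 and 4. Neighbouring nlp genes on chromosome V moved apart: nlp-27, at 3989378 to 3989770, rose from 232 to 429 CPM to 1861, 1650, 1761 and 913 CPM (2.26 ± 0.32), while nlp-34, at 3978825 to 3979134, fell from 116 to 190 CPM to 17.6, 13.2, 12.2 and 24.2 CPM (−3.17 ± 0.33). Several nlp peptides of this cluster act in the epidermis as antimicrobial peptides.

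Of 14 synaptic genes tested 4 fell and none rose, with a median log2 fold change of −0.87 (−1.05 without YA repeats 1 and 4, −1.13 without repeats 2 and 3), and all 4 falls were called in both of these fits. The list's summed level was 534 to 653 CPM in L4 and 454, 812, 883 and 496 CPM in YA repeats 1 to 4. The YA libraries thus lay on both sides of the L4 range. The peptide-processing carboxypeptidase egl-21, at 102 to 162 CPM in L4 and 47.5 to 60.1 CPM in YA, changed by −1.29 ± 0.25. ida-1, of dense-core vesicles, fell by 1.60 on the log2 scale and unc-18, of vesicle release, by 3.05. The call of egl-3, another of the 4, was lost without L4 repeat 3 or 4 (edgeR adjusted p 0.0566 and 0.0564). Of 34 C-type lectins 7 rose and 5 fell, near the shares over all genes tested (22.8% and 15%). The list median was −0.74 without YA repeats 1 and 4 and 0.66 without repeats 2 and 3. clec-87 rose from 110 to 157 CPM to 815, 491, 475 and 1122 CPM (2.47 ± 0.34), and clec-222 from 0.62 to 2.38 CPM to 25.5 to 66.5 CPM (4.97 ± 0.49).

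The remaining lists are small, and their calls are set against 22.8% higher and 15% lower over all genes tested. Lysozymes, saposins and caenacins rose in 4 of 21 tested and fell in 1, fatty acid desaturases and elongases rose in 2 of 9, lipid-binding proteins in 1 of 7, and intestinal and lysosomal proteases fell in 1 of 16. Of 9 heat shock proteins tested 1 rose and 2 fell, and of 8 vulva, uterus and spermatheca genes 1 rose and 1 fell. Neither desaturase call was made in both fits without a YA pair.

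With all 8 libraries, the medians of housekeeping lists were near that of all genes. For ribosomal protein genes this did not hold in each YA pair. Their median was 0.45 without YA repeats 1 and 4 and −0.36 without repeats 2 and 3. The medians of all genes in these fits were −0.37 and −0.05. Of 82 cytosolic ribosomal protein genes, all of which were tested, 3 rose and 1 fell, with a median log2 fold change of 0.12, and of 25 proteasome genes 5 rose and none fell (0.25). None of the proteasome calls was made in both fits without a YA pair, and rpn-7 alone was called without repeats 2 and 3. rpn-1, a regulatory particle subunit, was at 0.07 without them against 1.49 with all libraries, and its call was also lost without any L4 library or without YA repeat 2 or 3 alone (adjusted p 0.0775 to 0.1). The fall of rpl-6, by 1.52 on the log2 scale, ended without L4 repeat 3 or 4 (adjusted p 0.0791 and 0.0822).

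Single ribosomal protein genes differed widely among the YA libraries. By a rule that took the 8 genes with the largest spread among YA libraries, rpl-39, rps-28 and rpl-38 came up with the splicing factor gene snr-7, msp-40, the sperm gene nspd-10 and the unnamed Y22D7AR.10 and W03C9.5. rpl-39 was at 1046 to 1247 CPM in L4 and at 2382, 7.29, 5.52 and 1208 CPM in YA repeats 1 to 4, and rps-28 at 2633 to 4012 CPM in L4 and 4299, 16.6, 23 and 2829 CPM in YA. In each of the 8 genes YA repeats 2 and 3 were low and repeats 1 and 4 lay within the L4 range or above it. rps-25, with a transcript of 400 bases, was not low there, at 13918, 15566, 17668 and 10978 CPM in YA. Of these 8 genes only Y22D7AR.10 was called (4.73 ± 1.57, edgeR adjusted p = 0.0367), and not without repeats 1 and 4, where the log2 change was −2.2, nor without any 1 of the L4 libraries or YA repeat 1 or 4 (adjusted p 0.0631 to 0.0997).

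The genes that were low in YA repeats 2 and 3 were mostly short. With at least 20 CPM in both of the higher libraries, 214 genes were at least 8-fold lower in YA repeats 2 and 3 than in 1 and 4, and none was so in the other direction. In L4 the same rule between repeats 1 and 2 and repeats 3 and 4 found 6 and 0 genes. The longest annotated transcripts of the 214 genes had a median of 614 bases, against 1240 bases for all 1581 genes with a mean of 50 CPM in YA, and 15 were MSP genes, against 12 among the 1581. Ribosomal protein genes numbered 13 of the 214 and 79 of the 1581, similar shares. The level rule of the 214 used repeats 1 and 4 alone, and that of the 1581 the mean over all YA libraries. The 214 are thus not all among the 1581, and these contrasts are not like for like. Of the 199 tested protein-coding genes with transcripts of up to 400 bases, 25.6% and 24.1% were at least 8-fold under the L4 mean in YA repeats 2 and 3, compared with 4.5% and 4.0% in repeats 1 and 4. For the 1171 genes over 2500 bases these shares were 3.8% and 4.4%, and 3.2% and 2.6%. Another set held protein-coding genes over 2500 bases with a mean of at least 50 CPM over all 40 libraries, scaled together. The median log2 deviation of these genes from their own group's median was 0.72 in both YA repeats 2 and 3. It was −0.90 and −0.69 in repeats 1 and 4. All 4 values lay beyond the range of −0.28 to 0.55 over the other 36 libraries of the series. The part of this pattern in the stage change was not tested beyond the fits that leave out a pair, and among genes with a transcript of at least 1000 bases 864 of 3999 were called higher and 774 lower.

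**Figure D5:**
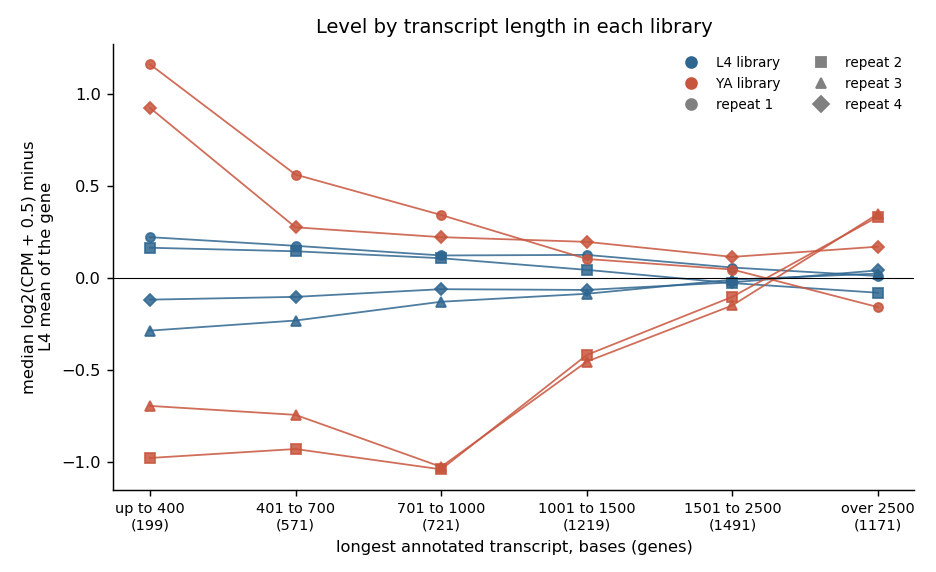
Median over genes of log2(CPM + 0.5) minus the gene's mean in L4, by length of the longest annotated transcript, for each L4 (blue) and YA (red) library, with the number of tested protein-coding genes under each class. YA repeats 2 and 3 lie at −0.98 and −0.69 for transcripts of up to 400 bases and at 0.33 and 0.35 over 2500 bases, while repeats 1 and 4 lie at 1.16 and 0.93 for the shortest class.

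Markers of other sources were low, with an exception in the YA libraries of repeats 1 and 4. The summed level of the 15 male genes, a list that draws in part on genes the study itself used as male markers, was 13.2 to 18.3 CPM in L4 and 122, 8.6, 12.4 and 99.4 CPM in YA repeats 1 to 4. In YA males it was 1564 to 2043 CPM, with all 40 libraries scaled together. clec-208 and clec-207 made most of it, at 43.1 and 34.2 CPM and at 24.7 and 22.4 CPM in YA repeats 1 and 4, and they were at 0 to 0.221 CPM in repeats 2 and 3. K09C8.2, a gene of the male seminal vesicle and vas deferens, had no UMI in L4 or in YA repeats 2 and 3, and 8.78 and 4.31 CPM in YA repeats 1 and 4. The polycystin gene pkd-2 of male sensory neurons had 2 UMIs in the 4 YA libraries together, while cwp-4 and try-5 had none. Of 4 male genes tested Y39B6A.9 was called higher, but not without YA repeats 1 and 4, and ram-5 lower, with 53 UMIs in L4 and none in YA, at least 10.6-fold lower against a floor of 3 UMIs over the group. The call of ram-5 was lost without any 1 of the L4 libraries, where its mean normalized count fell under the limit of 5. Its edgeR adjusted p of 0.00511 to 0.0066 and log2 changes of −6.41 to −6.47 still passed. The call of Y39B6A.9 was lost without any 1 of the L4 libraries or YA repeat 1 or 4 (adjusted p 0.0771 to 0.134). MSP levels were highest in the same YA libraries, and the part of male RNA in any result was not tested. Genes switched on in embryos summed to 11.2 to 18.5 CPM in L4 and 4.8 to 8.8 CPM in YA, so no rise of embryonic transcripts was seen.

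The X chromosome carried fewer rises and more falls than each autosome. Of 695 X-linked genes tested, 11.8% were called higher and 28.8% lower, with a median log2 fold change of −0.58. On the 5 autosomes the share called higher ran from 22.6% to 26.1% and the share called lower from 9.49% on chromosome I to 18.2% on chromosome V, with medians from −0.06 to 0.25. In C. elegans the X chromosomes are largely silent in the germ line, and most germline genes are autosomal. Whether this has a part in the X-linked counts was not tested. In the calls made in both fits without a YA pair the X chromosome had 42 rises and 180 falls.

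The stage change differed between the sexes for many genes, although the males are of another strain, so that the part of sex and that of strain cannot be told apart. In a model of the 16 L4 and YA libraries of both sexes, the log2 change was more positive in hermaphrodites for 1138 of 6710 genes (17%) and more negative for 1062 (15.8%), and without YA hermaphrodite repeats 1 and 4 the counts were 1735 and 2143. Eggshell genes (7 of 14 tested), oocyte RNA-binding proteins (11 of 28) and DNA replication genes (8 of 24) changed more positively in hermaphrodites, and none of these lists had a member called the other way. Eggshell genes summed to 316 to 414 CPM in L4 males and 487 to 527 CPM in YA males. Molting genes summed to a lower level in YA in both sexes, from 3408 to 4317 CPM in L4 males to 1051 to 1250 CPM in YA males, and the change was more negative in hermaphrodites for 12 of 23 and more positive for 3.

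Of the vitellogenins, 5 of 6 had a more negative log2 change in hermaphrodites than in males, and 1 a more positive one. L4 males held almost none (4.4 to 7.0 CPM over the family, all 40 libraries scaled together) and YA males 161 to 254 CPM. The fold of the family sum was thus larger in males, although the level stayed far under that of hermaphrodites. For vit-1 the fold was larger in hermaphrodites, from 113 to 189 CPM to 703 to 1135 CPM, against 3.14 to 5.14 CPM and 7.79 to 10.7 CPM in males. vit-5 had 1 UMI in the 4 L4 male libraries and 19.7 to 29.7 CPM in YA males, against 124 to 246 CPM and 881 to 1039 CPM in hermaphrodites, for a difference of −5.72 (edgeR adjusted p = 2.92e-05). The transthyretin-like gene ttr-14 had no UMI in L4 males and 0.693 to 2.01 CPM in YA males, while it went from 96.9 to 169 CPM to 2.46 to 22 CPM in hermaphrodites. Its difference of −9.01 (edgeR adjusted p = 0.00075) depends on the prior count, since a group holds no UMI. Y51H7C.13 fell in hermaphrodites, from 216 to 297 CPM to 20.8 to 83.9 CPM, and was at 0 to 0.933 CPM in L4 males and 0.725 to 13.7 CPM in YA males (−6.48, edgeR adjusted p = 0.000345). T19C3.2 fell in both sexes but further in hermaphrodites (−5.56, edgeR adjusted p = 0.000104).

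In the other direction M151.7 rose from 0.513 to 3.39 CPM to 35.3 to 142 CPM in hermaphrodites and stayed at 3.26 to 4.75 CPM over both stages in males, a difference of 5.74 (edgeR adjusted p = 6.44e-05). The collagen gene col-132 fell in males from 251 to 318 CPM to 17 to 43.1 CPM and had 4 and 10 UMIs in L4 and YA hermaphrodites, a difference of 5.34 (edgeR adjusted p = 0.00042). F25E5.3 and K09C8.2 had no UMI in L4 hermaphrodites. They reached 58 and 38 UMIs in YA, nearly all in repeats 1 and 4, at least 32.3-fold and 21.2-fold higher against the floor of 3 UMIs. Their differences of 5.43 and 5.26 (edgeR adjusted p = 0.041 and 0.0419) were lost without YA hermaphrodite repeats 1 and 4, at 0.61 and −1.68, and without any 1 of 13 (F25E5.3) or 14 (K09C8.2) of the 16 libraries (adjusted p 0.0505 to 0.0792).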

How the data were processed

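Whole-animal RNA was prepared by a bulk MARS-seq protocol, which counts transcripts near their 3′ end. The authors trimmed reads with cutadapt, aligned them to WBcel235 with STAR 2.4.2a and used HTSeq for counting after UMI deduplication, and the deposited UMI counts per gene, whole numbers, were used here. A further 120 columns (normalized and transformed values of the authors) and the authors' own fold changes and p-values were not used. Positions and transcript lengths come from the Ensembl annotation of WBcel235, which placed 11675 of 11933 genes by name.

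Counts of the 8 libraries were fitted with edgeR 4.0.16 in R 4.3.3 (filterByExpr with a minimum count of 10 and minimum total of 15, TMM, quasi-likelihood F test, common dispersion 0.253), with the thresholds for a call that the study used. The difference between the sexes was an interaction term in 16 libraries. On simulated counts over 5355 genes, 27.7% of genes changed 3-fold and 84.0% of those changed 8-fold were recovered, none in the wrong direction. A prior count of 2 went into the log2 CPM behind correlations and components. Tables and figures used Python 3.11.15 with pandas 2.3.3.

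Named genes were the 10 largest called changes per direction with a mean normalized count of at least 100 and no overlap, up to 3 called members of each of 30 lists by mean CPM, all vitellogenins, the 8 genes most spread among YA libraries, and 4 genes per direction for the difference from males. In a list without a call, the 2 most abundant members. Exceptions are stated. Samples, comparisons and gene lists were chosen with earlier results of these data known. Alternatives were DESeq2 1.42.0, limma 3.58.1 and those given in the closing section, of which leaving out YA repeats 2 and 3 and keeping transcripts of at least 1000 bases were chosen after seeing the data. Nothing beyond the word repeat says that libraries came from separate cultures, so p-values measure the spread between these libraries.

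Repeats carry the same numbers in both stages. Same-numbered L4 and YA libraries had correlations of −0.185, 0.104, −0.237 and 0.175 between their deviations from the group means, so the numbers were not taken to pair them.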

Additional observations from a re-analysis of the deposited data

Results flagged for a closer look

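In 7 of 216 groups of 4 libraries among the named genes, 1 library lay far from the other 3, with a gap over the whole range above Dixon's 95% critical value for 4 samples. Chance alone flags about 1 in 20 such groups. In YA hermaphrodites these were T19C3.2 (gap over range 1, its only UMI), noah-1 (0.885, repeat 4 high), syp-4 (0.961, repeat 1 low), nspd-2 (0.938, repeat 2 low) and vit-1 (0.831, repeat 4 low). In L4 hermaphrodites they were msp-63 (0.833, repeat 3 low) and gas-1 (0.863, repeat 2 low).

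The stage change of 8 genes differed most between hermaphrodites and males by the test of the difference itself. The log2 difference was 5.74 for M151.7, 5.43 for F25E5.3, 5.34 for col-132 and 5.26 for K09C8.2. It was −9.01 for ttr-14, −6.48 for Y51H7C.13, −5.72 for vit-5 and −5.56 for T19C3.2. Strain differs with sex in all of them.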

How the results depend on the processing

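The counts of 1272 higher and 837 lower genes moved most with the YA libraries used and with the tool. Lower genes numbered 1816 with all 40 libraries in the model (1702 higher), 2027 with limma voom and sample weights (1507 higher), 2293 without YA repeats 1 and 4 and 1258 without YA repeats 2 and 3, and glmTreat against a 2-fold change gave 676 higher and 509 lower. Genes that differed from males numbered 2200, and 3878 without YA hermaphrodite repeats 1 and 4. Leaving out 1 library at a time gave 963 to 1374 higher, 636 to 1015 lower and 1835 to 2729 that differed from males. Of the named genes with a call, 81 to 99 kept call and direction without 1 library, 21 lost it at least once, and 64 of the 66 with a transcript of at least 1000 bases kept it among such genes alone. Without YA repeats 1 and 4 the log2 changes of Y22D7AR.10, nspd-10, W03C9.5 and snr-7 were −2.2, −6.3, −4.37 and −5.89, and with limma voom −1.39, −5.37, −3.63 and −5.3, against 4.73, 1.27, 2.5 and 0.22. The difference of K09C8.2 from males was −1.68 without YA repeats 1 and 4, against 5.26. The causes were not tested.

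With a replicate block, 907 genes were higher, 694 lower, and same-numbered libraries did not share deviations. No L4 library correlated best with the YA library of its own number. DESeq2's size factors gave 1167 and 998, its Wald test 1244 and 1123, no filter 1108 and 1254, and thinning to the smallest library 975 and 709. Low genes limit the comparison, since a gene high in 2 YA libraries alone may not pass the filter.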
